A study of Mus musculus with 10 samples.

Results

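The MHC class II presentation genes are 8 genes of the antigen presentation pathway, H2-Aa, H2-Ab1, H2-Eb1, H2-DMa, H2-DMb1, Cd74, Ciita and Ctss, chosen by symbol from a table of 18994 genes. All 8 were found in the table and all 8 passed the filter on low counts, which kept 15250 genes. They were measured by mRNA sequencing in skin of the cheek, from C57BL/6 mice that were 6 to 8 weeks old. The cheek had been shaved 3 days earlier. One group of 5 mice received 1 µg of matrix metalloproteinase 9 (MMP9, a secreted protease that cuts gelatin) in 5 µL into the dermis of the right cheek, the other 5 mice received the same volume of vehicle, and skin was taken after 4 hours. Each library is 1 numbered mouse. The sex of the mice, the content of the vehicle and the source of the MMP9 protein are not stated in the labels. The comparison asks whether these genes differ in expression between the 2 groups.

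MHC class II molecules are pairs of an alpha and a beta chain that carry peptides from endosomes to the cell surface, where CD4 T cells read them. In the endoplasmic reticulum the pairs assemble on the invariant chain, which the gene Cd74 encodes. In endosomes, cathepsin S (Ctss) trims the invariant chain to a short peptide, and the H2-DM dimer exchanges that peptide for antigen. Transcription of the chains, of H2-DM and of Cd74 depends on the co-activator CIITA, which is recruited by factors bound to the X and Y boxes of their promoters. In skin the main class II positive cells are Langerhans cells, dermal dendritic cells and part of the macrophages. C57BL/6 mice lack a working H2-Ea gene, so the beta chain from H2-Eb1 has no alpha partner in this strain.

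Promoter stretches are shown to compare the X and Y box letters among class II genes, the paralogs H2-DMb1 and H2-DMb2 included. RefSeq promoter windows on GRCm38.p6, from 250 bases before to 50 bases after the gene start, were used for 5 of the 8 members (H2-Aa, H2-Eb1, H2-DMa, H2-DMb1 and Ctss) and for H2-DMb2, H2-Eb2, H2-Oa and H2-Ob. An X box core, AGNAAC, and a Y box core, GATTGG, were searched on both strands, and a module was an X core followed by a Y core on the same strand after 15 to 35 bases. The 2 motifs do not overlap. The stretches below run 5′ to 3′ along the gene, all are on chromosome 17, and capitals mark the Y core and, where a module was found, the X core before it.
H2-Eb1, chr17:34305747-34305826, plus strand: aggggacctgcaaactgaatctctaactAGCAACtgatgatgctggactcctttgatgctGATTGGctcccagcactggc
H2-DMb1, chr17:34153069-34153148, plus strand: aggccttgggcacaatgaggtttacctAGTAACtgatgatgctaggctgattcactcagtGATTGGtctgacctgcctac
H2-DMb2, chr17:34145098-34145177, plus strand: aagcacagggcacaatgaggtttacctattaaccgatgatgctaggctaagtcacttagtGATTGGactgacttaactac
H2-Ob, chr17:34238787-34238866, plus strand: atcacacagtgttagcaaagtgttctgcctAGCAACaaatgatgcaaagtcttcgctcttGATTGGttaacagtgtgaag
H2-Aa, chr17:34287853-34287932, minus strand: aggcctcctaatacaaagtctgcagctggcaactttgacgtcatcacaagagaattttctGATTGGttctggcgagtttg

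A module was found in H2-Eb1, with 26 bases between the cores, and in H2-DMb1, with 27. It was also found in H2-Eb2, H2-Oa and H2-Ob, with 26, 27 and 24 bases between the cores. The module stood in 122 of 32851 promoter windows of the same length, or 0.371%. A Y core on either strand, with or without an X core, stood in 16.1% of all windows. An X core, with or without a Y core, stood in 48.1%. H2-Aa and H2-DMb2 held the Y core without a module, H2-DMa held a Y core in 1 of its 2 windows, and the Ctss window held neither core. No match says only that these letters are not in that window.

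**Figure D1:**
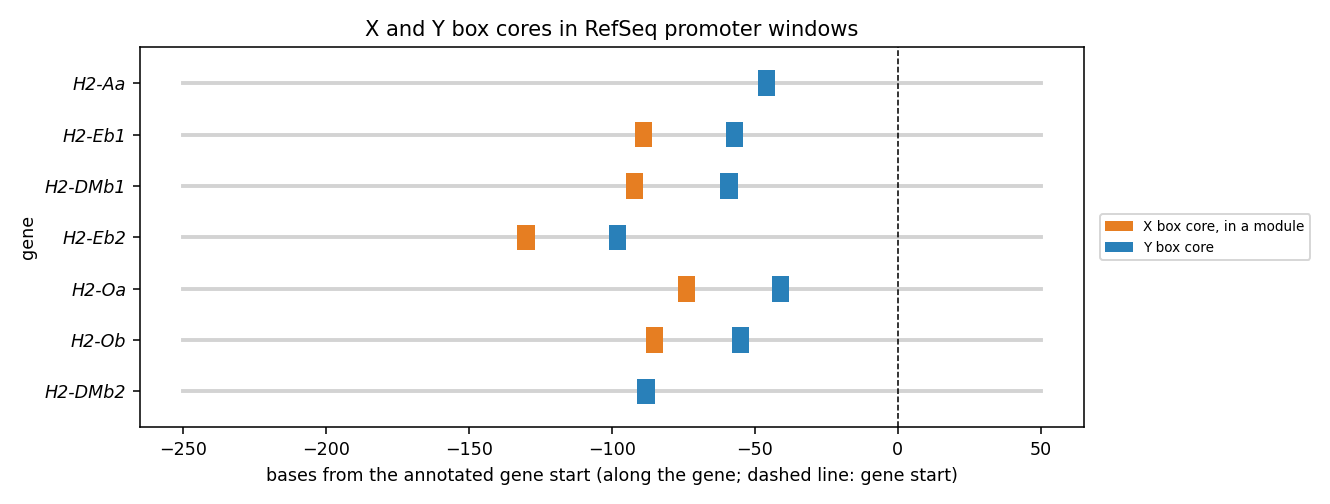
Positions of the X box core in a module (orange) and the Y box core (blue) along the RefSeq promoter windows (grey) of H2-Aa, H2-Eb1, H2-DMb1, H2-Eb2, H2-Oa, H2-Ob and H2-DMb2, in bases from the annotated gene start. In the 5 genes with a module the cores stand 24 to 27 bases apart, and H2-Aa and H2-DMb2 show the Y core alone.

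Class II transcripts were abundant in this skin, and the order of the genes was nearly the same in every library. Levels of different genes are compared here in TPM, a share of transcripts that the authors scaled by length. Cd74 was highest, at 1988 ± 726 TPM with vehicle and 2248 ± 508 TPM with MMP9 (SD, n = 5), and stood at rank 81 of all 18994 genes by its mean TPM. The beta chain gene H2-Ab1 had 993 ± 312 and 1171 ± 167 TPM, and its alpha chain partner H2-Aa had 918 ± 314 and 1093 ± 136 TPM. H2-Eb1 followed at 378 ± 116 and 453 ± 68.8 TPM. Ctss had 168 ± 103 and 217 ± 114 TPM. The H2-DM genes came next, with H2-DMb1 at 81.6 ± 23.0 and 95.7 ± 11.8 TPM and H2-DMa at 65.8 ± 18.8 and 69.0 ± 11.6 TPM. Ciita was lowest, at 5.55 ± 1.18 and 6.74 ± 2.29 TPM, rank 10660. Every step in this order held in 10 of 10 libraries except that between H2-Ab1 and H2-Aa, which held in 9 of 10, so the levels of these partner chains are not set apart.

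H2-DMb2 and H2-Eb2 stood below H2-DMb1 and H2-Eb1, their paralogs among the members. H2-DMb2, the second H2-DM beta gene, had 12.1 ± 2.75 TPM with vehicle and 13.1 ± 2.18 TPM with MMP9 (SD, n = 5). H2-DMb1 exceeded it 5.83 to 8.31 times over the 10 libraries. H2-Eb2 had 0.288 ± 0.148 and 0.502 ± 0.244 TPM, against 250 to 523 TPM for H2-Eb1. H2-Oa and H2-Ob, which encode an inhibitor of H2-DM known from B cells and thymus, had 2.92 ± 0.707 and 1.74 ± 0.749 TPM in vehicle. How reads shared by such paralogs were assigned is not given in the sources used here, so the split between H2-DMb1 and H2-DMb2 is uncertain.

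Differences between the groups are given in CPM, counts scaled to library size with edgeR's TMM factors, and no member passed the test. In edgeR's quasi-likelihood test 0 of 8 members had a Benjamini-Hochberg adjusted p under 0.05, against 0 of 15250 genes (0%), and 0 of 8 had an unadjusted p under 0.05, against 3.19% of all genes in either direction and 2.07% toward higher values in MMP9. All 8 members had positive log2 fold changes, where 53.7% of all genes did. Their median was 0.31, beside 0.01 over all genes tested. The values ran from 0.14 for H2-DMa to 0.44 for Ctss, or 1.10 to 1.35 fold. The members were measured in the same mice and most varied together between them, so the 8 shared signs are not 8 separate results. For 0 of 8 members the groups did not overlap, against 0.564% of all genes. DESeq2 and limma-voom also called 0 of the 8, and each had 0 of 8 at an unadjusted p under 0.05. In such bulk tissue, a difference in the number of class II positive cells and one in RNA per cell cannot be told apart.

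**Figure D2:**
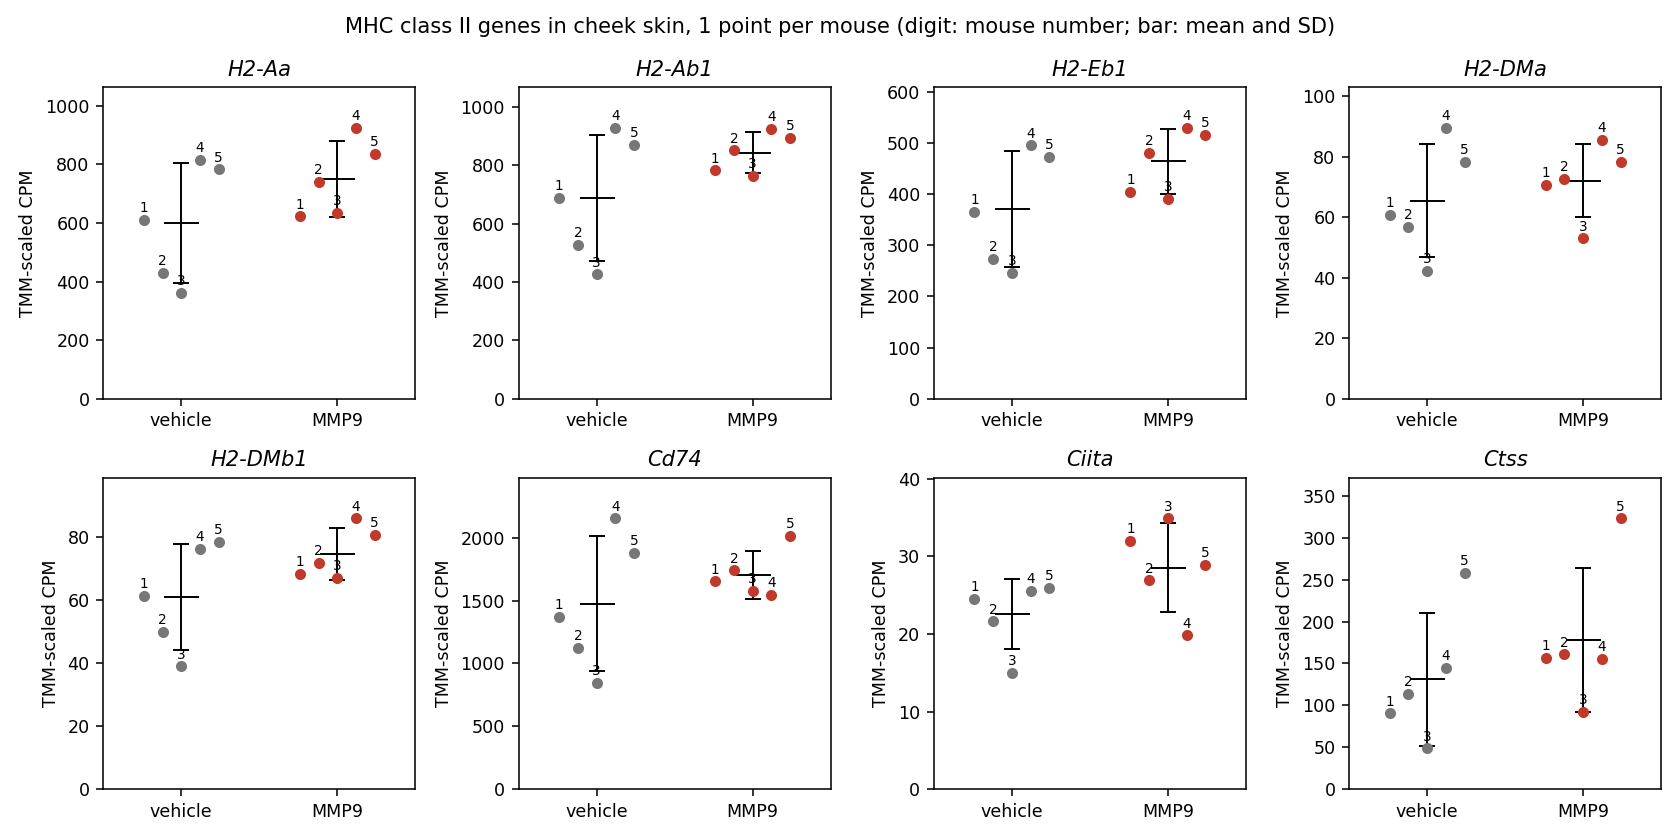
TMM-scaled CPM (linear axis from 0) of the 8 genes in each mouse, grey for vehicle and red for MMP9, with the mouse number beside each point and the mean and SD as bars. The groups overlap in every panel, and vehicle mouse 3 is the lowest of its group for all 8 genes.

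Among the antigen-binding chains, H2-Aa (Entrez gene 14960) had 611, 430, 361, 816 and 783 CPM in vehicle mice 1 to 5 and 623, 739, 635, 925 and 836 CPM in MMP9 mice 1 to 5. The 3 lowest libraries were vehicle mice 3, 2 and 1, and the groups overlapped. The log2 fold change was 0.33 (standard error, SE, 0.23, edgeR adjusted p = 0.981). H2-Ab1 (Entrez gene 14961) had 688, 527, 426, 928 and 870 CPM in vehicle and 783, 851, 762, 925 and 894 CPM in MMP9. Its lowest values were again those of vehicle mice 3, 2 and 1, and its highest was that of vehicle mouse 4. The log2 fold change was 0.29 (SE 0.20, edgeR adjusted p = 0.981), and its 95% interval ran from -0.15 to 0.73. H2-Eb1 (Entrez gene 14969) had 366, 273, 246, 495 and 472 CPM in vehicle and 404, 481, 390, 530 and 516 CPM in MMP9. It showed the same 3 libraries at the bottom, with a log2 fold change of 0.33 (SE 0.20, edgeR adjusted p = 0.981).

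Cd74 (Entrez gene 16149) had 1369, 1126, 846, 2153 and 1881 CPM in vehicle mice 1 to 5 and 1653, 1740, 1574, 1544 and 2015 CPM in MMP9 mice 1 to 5. Both extremes lay in the vehicle group, in mice 3 and 4, and every MMP9 library lay between them. Its log2 fold change was 0.21 (SE 0.23, edgeR adjusted p = 0.981), and its 95% interval ran from -0.30 to 0.72.

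Of the peptide exchange genes, the beta chain gene had the larger log2 fold change. H2-DMb1 (Entrez gene 14999) had 61.3, 50.0, 39.0, 76.4 and 78.5 CPM in vehicle and 68.4, 71.7, 67.0, 85.9 and 80.8 CPM in MMP9. Vehicle mice 1 to 3 were below every MMP9 library. H2-DMa (Entrez gene 14998) had 60.8, 56.7, 42.1, 89.5 and 78.3 CPM in vehicle and 70.8, 72.7, 53.0, 85.5 and 78.2 CPM in MMP9, and only vehicle mouse 3 was below every MMP9 library. The log2 fold changes were 0.29 for H2-DMb1 and 0.14 for H2-DMa, with SEs of 0.18 and 0.19 (edgeR adjusted p = 0.981 for both).

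Ciita (Entrez gene 12265), the co-activator gene, had the smallest p of the 8 without passing. It had 24.5, 21.6, 15.03, 25.5 and 26.0 CPM in vehicle mice 1 to 5 and 32.0, 26.9, 34.9, 19.8 and 28.9 CPM in MMP9 mice 1 to 5. In CPM, 4 of 5 MMP9 mice lay above every vehicle mouse, and MMP9 mouse 4 lay below all but vehicle mouse 3. In TPM, MMP9 mouse 2 and vehicle mouse 5 were level at 6.61, and MMP9 mouse 4 was lowest of all, at 3.02. The estimate was 0.34 on the log2 scale (SE 0.18), with an edgeR unadjusted p of 0.0791 and an adjusted p of 0.981. Without MMP9 replicate 4 it was 0.44 (edgeR unadjusted p = 0.0194, adjusted p = 0.999). Without vehicle replicate 3 it was 0.22 (edgeR unadjusted p = 0.171), and limma on log2(TPM + 1) gave 0.20 (unadjusted p = 0.433).

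Ctss (Entrez gene 13040), the cathepsin that trims the invariant chain, varied most between mice. It had 90.5, 114, 48.7, 144 and 258 CPM in vehicle and 156, 161, 92.5, 156 and 323 CPM in MMP9. Mouse 5 was the highest of each group, and the highest library held 6.63 times the level of the lowest. The log2 fold change was 0.44 (SE 0.42, edgeR adjusted p = 0.981). Its size rested on single mice, at 0.83 without vehicle replicate 5 and 0.11 without MMP9 replicate 5.

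**Figure D3:**
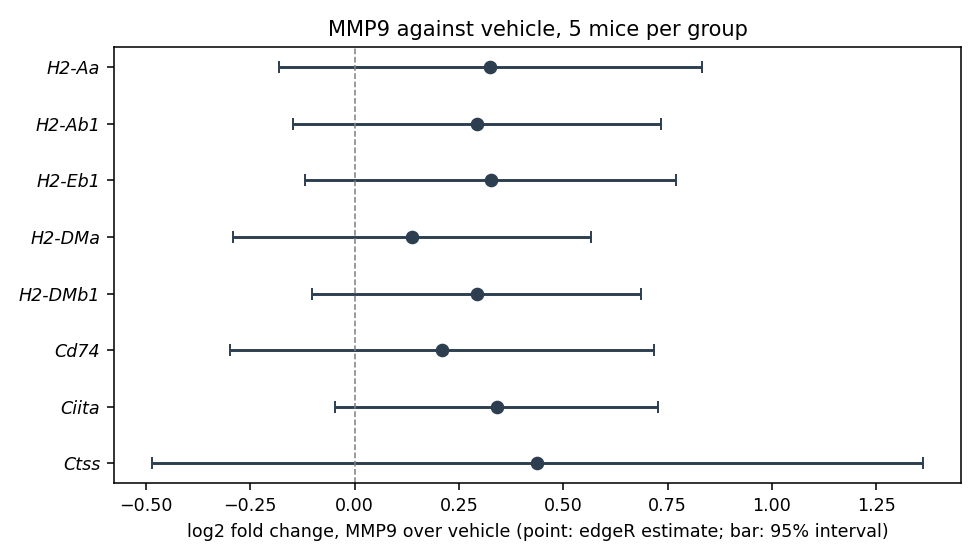
Log2 fold change, MMP9 over vehicle, of the 8 genes from edgeR (points) with 95% intervals (bars), 5 mice per group. All points lie between 0.14 and 0.44, and every interval includes 0.

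In CPM, vehicle mouse 3 was the lowest library of all 10 for H2-Aa, H2-Ab1, H2-Eb1, H2-DMa, H2-DMb1, Cd74, Ciita and Ctss. In TPM this held for all but Ciita, where MMP9 mouse 4 had 3.02 and vehicle mouse 3 had 3.62. Without vehicle mouse 3 each of the 8 log2 fold changes was smaller. They ran from 0.01 for H2-DMa and 0.06 for Cd74 to 0.22 for Ciita and 0.23 for Ctss. The hair shaft and inner root sheath genes of that mouse summed to 6770 CPM, the highest of the 10 libraries, and those of vehicle mouse 2 and MMP9 mouse 1 to 16.4 and 21.2 CPM, the lowest. Without the latter pair the log2 fold change of Cd74 was 0.14 and that of H2-Aa 0.29. Total estimated counts were 17121541 to 19443099 per library. MMP9 mouse 4 stood apart: ribosomal protein genes made up 24.4% of its TPM, against 15.6% to 17.1% in the other 9 libraries, and its TMM factor was 0.843, against 0.993 to 1.05. For H2-Aa that mouse had the highest CPM of its group, at 925, and the lowest TPM, at 940. The same reversal held for H2-Ab1 (925 CPM, 887 TPM), H2-Eb1 (530 CPM, 359 TPM) and H2-DMb1 (85.9 CPM, 76.3 TPM). The place of MMP9 mouse 4 in its group therefore depends on the scale. The part of these library differences in the results was not tested.

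On the CPM scale the SD between mice was lower in MMP9 than in vehicle for the chains and Cd74. The highest vehicle library exceeded the lowest by 2.18 times for H2-Ab1 and 2.54 times for Cd74, against 1.21 and 1.31 times in MMP9. The SD of log2 CPM was 0.48 in vehicle and 0.12 in MMP9 for H2-Ab1, and 0.55 and 0.15 for Cd74. Over all genes tested the median SD went the other way, 0.18 in vehicle and 0.26 in MMP9. For H2-Aa the SDs of log2 CPM were 0.52 in vehicle and 0.25 in MMP9, the latter near the median gene. The vehicle SD of Cd74 exceeded that of 89.8% of all genes, and its MMP9 SD that of 20.5%. Ciita had nearly equal SDs, 0.33 and 0.31, and Ctss had 0.88 and 0.64. Log2 TPM was a scale added after the data were seen. On that scale MMP9 mouse 4 was the lowest of its group for H2-Aa, H2-Ab1, H2-Eb1, H2-DMb1, Cd74 and Ciita. There the MMP9 SD was 0.38 for Cd74 and 0.23 for H2-Ab1, against 0.55 and 0.48 in vehicle, and for Ciita it was 0.62 against 0.35. The size of the difference in spread, and for Ciita its direction, therefore depended on the scaling, and the difference was not tested.

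While levels moved more than 2-fold between mice, the ratios of the chain genes to H2-Ab1 within a library varied less than H2-Ab1 itself. The TPM ratio of H2-Aa to H2-Ab1 was 0.918 ± 0.0365 with vehicle and 0.940 ± 0.0869 with MMP9 (SD, n = 5), and over all 10 libraries it lay between 0.843 and 1.06. That of H2-Eb1 to H2-Ab1 was 0.382 ± 0.0156 and 0.388 ± 0.0224. The log2 ratio had an SD of 0.098 for the first and 0.069 for the second over the 10 libraries, where log2 TPM of H2-Ab1 itself had an SD of 0.38. The ratio of Cd74 to H2-Ab1 was 1.98 ± 0.132 with vehicle and 1.90 ± 0.202 with MMP9, with its lowest value, 1.56, in MMP9 mouse 4.

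The 2 ratios with H2-DMa had the smallest p, and neither passed. The ratio of H2-DMa to H2-DMb1 was 0.808 ± 0.0580 with vehicle and 0.721 ± 0.0795 with MMP9 (SD, n = 5), a log2 difference of -0.17 (2-sided exact permutation p = 0.0794, adjusted p over the 6 ratios = 0.238). Without MMP9 replicate 3 that difference was -0.096 (exact permutation p = 0.159). The ratio of H2-DMa to H2-Aa was 0.0733 ± 0.00846 and 0.0631 ± 0.00777, a log2 difference of -0.22 (exact permutation p = 0.0714, adjusted p = 0.238). MMP9 mouse 3 was lowest in both ratios, at 0.583 and 0.0538. Leaving out each mouse in turn gave -0.20 to -0.096 for H2-DMa to H2-DMb1 (exact permutation p from 0.0476 to 0.159, lowest adjusted p = 0.190). For H2-DMa to H2-Aa it gave -0.28 to -0.16 (exact permutation p from 0.0159 to 0.143, lowest adjusted p = 0.0952). The ratio of Ciita to H2-Ab1 was the most variable, from 0.00341 in MMP9 mouse 4 to 0.00750 in MMP9 mouse 3, and its log2 SD was 0.33. None of the 6 ratios passed, with exact permutation p from 0.0714 to 0.778, where 5 against 5 mice allow 0.00794 at the smallest.

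**Figure D4:**
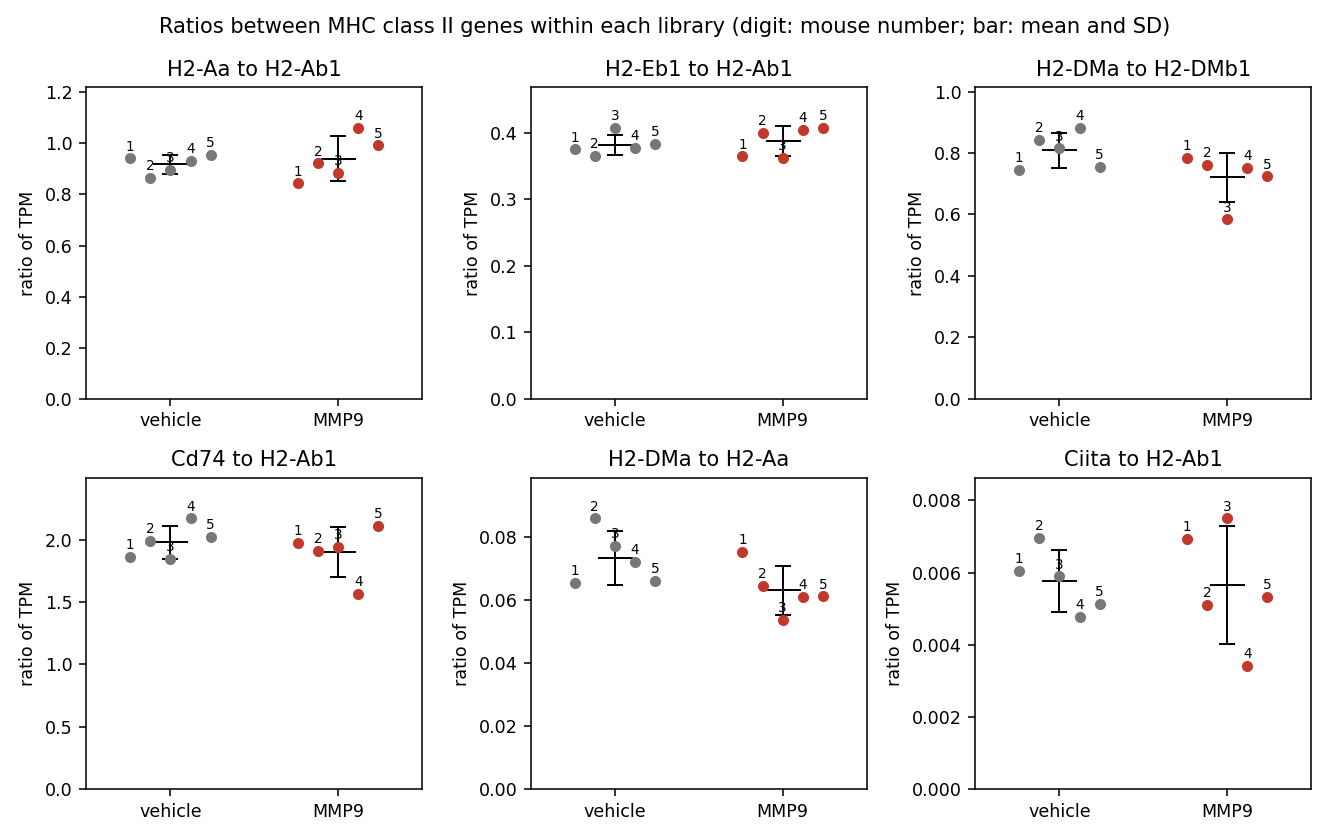
Ratios of TPM between pairs of the genes within each library (linear axes from 0), grey for vehicle and red for MMP9, with mouse numbers and the mean and SD as bars. H2-Aa to H2-Ab1 stays between 0.843 and 1.06, while Ciita to H2-Ab1 runs from 0.00341 to 0.00750.

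Markers of class II positive and other leukocytes varied between mice as well. The summed level of 5 markers of all leukocytes (Ptprc, Coro1a, Laptm5, Cd53 and Cd52) lay between 182 and 602 CPM in vehicle and between 382 and 593 CPM in MMP9. It was lowest in vehicle mouse 3, as the 8 members were in CPM. The log2 fold changes of all 5 were positive (median 0.27), and 0 were called. For the 13 macrophage and monocyte markers the sum was 437 CPM in vehicle mouse 3, 2373 in vehicle mouse 5 and 2275 in MMP9 mouse 5, the libraries in which Ctss was lowest and highest. The sum over all leukocytes was also highest in vehicle mouse 5 and MMP9 mouse 5. Other libraries did not keep the order: the macrophage sum was 1992 CPM in vehicle mouse 4 and 954 in MMP9 mouse 1, where Ctss had 144 and 156 CPM. Of these 13, 4 had positive and 9 negative log2 fold changes (median -0.12). Among them Mrc1, the mannose receptor gene, had 19.6 to 131 CPM in vehicle and 53.0 to 98.7 CPM in MMP9.

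Of 13 dendritic and Langerhans cell markers, 11 had positive log2 fold changes and 2 negative (median 0.26), and 0 were called. Their sum was 381 to 400 CPM in vehicle and 396 to 452 CPM in MMP9, where MMP9 mouse 4 was highest. It includes Epcam and Mfge8, which epithelium also expresses. In vehicle these had the highest mean TPM of the 13, at 109 and 117, followed by Cd209a at 33.1. The median over the 13 of log2 CPM minus the vehicle mean was -0.52 in vehicle mouse 3, the lowest of the 10 libraries. It was 0.36 in vehicle mouse 4, and 0.07 to 0.43 in MMP9. Cd207, the langerin gene of Langerhans cells, ran from 14.7 to 25.7 CPM in vehicle and from 19.5 to 44.5 CPM in MMP9. In TPM it ran from 16.8 to 28.6 in vehicle and from 21.6 to 34.3 in MMP9, with MMP9 mouse 4 at 33.0. Itgax, the gene of the integrin CD11c, ran from 8.67 to 21.6 and from 9.56 to 42.0 CPM. For all 7 T cell markers the log2 fold change was positive (median 0.26), and 0 were called. An edgeR unadjusted p under 0.05 was found for 3 of the 7, against 3.19% of all genes. In CPM the groups did not overlap for 2 of the 7, Cd3g and Cd247, where 0.564% of all genes did not. In TPM they stayed apart for Cd3g but overlapped for Cd247, with MMP9 mouse 4 at 15.8 and vehicle mouse 5 at 17.1. The sum of the 7 was 55.6 to 61.9 CPM in vehicle and 66.9 to 92.7 CPM in MMP9, highest in MMP9 mouse 4. In TPM that mouse was the lowest of its group for Cd3e, Cd247, Cd2, Cd5 and Lck, but not for Cd3d and Cd3g. B cell markers were close to the detection limit: the 10 libraries together held 11 counts of Ms4a1 and 65 of Cd79a, which were not tested, and the 4 tested markers summed to 2.03 to 5.96 CPM in vehicle and 3.94 to 9.59 CPM in MMP9. No marker of these lists was at 0 in every library. The part of these cell types in the class II values was not tested. The summed levels of 6 keratinocyte and 7 skeletal muscle genes overlapped between the groups, from 8390 to 15788 CPM and from 11302 to 22601 CPM over all libraries.

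**Figure D5:**
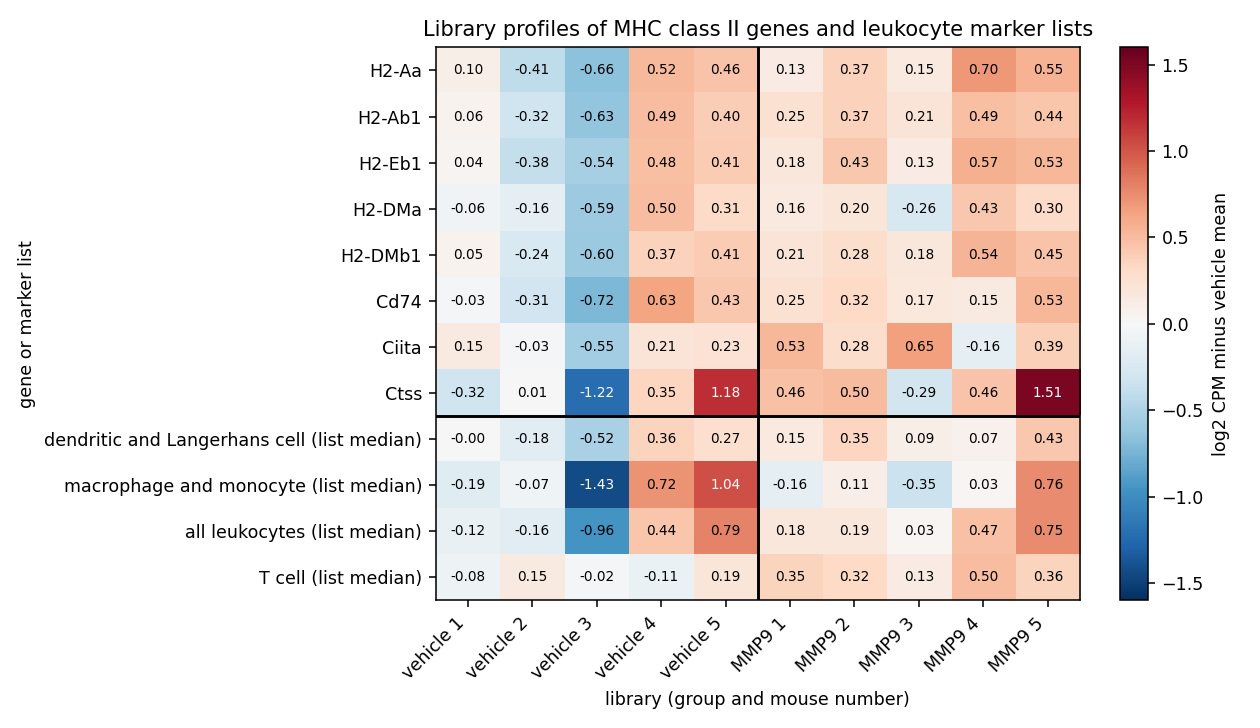
Log2 CPM minus the vehicle mean for the 8 genes, and the median of that value over 4 leukocyte marker lists, in each of the 10 libraries (red above, blue below the vehicle mean). Vehicle mouse 3 is blue for all 8 genes, and Ctss has its lowest value in vehicle mouse 3 and its highest in MMP9 mouse 5.

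Of the genes of the regulatory route to class II, 0 were called. The 8 genes of the factors that bind class II promoters (Rfx5, Rfxap, Rfxank, Nfya, Nfyb, Nfyc, Creb1 and Atf1) were nearly level, 4 positive and 4 negative, with a median of 0.01. Rfx5, an X box binding subunit, had 20.8 ± 1.93 CPM with vehicle and 23.0 ± 2.87 CPM with MMP9 (SD, n = 5). Of the 10 tested genes on the route from interferon gamma to Ciita, 8 were positive and 2 negative, with a median of 0.17. Irf1, a transcription factor that acts on a Ciita promoter, had 51.4 ± 7.27 and 62.9 ± 10.8 CPM, and Socs1, a feedback inhibitor of the pathway, had 19.6 ± 4.46 and 27.3 ± 7.08 CPM. Their log2 fold changes were 0.29 and 0.48 (edgeR unadjusted p of 0.0529 and 0.0325, adjusted p = 0.981 for both). The ligand gene Ifng had 33 counts over all 10 libraries and was not tested.

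Among 11 genes of endosomal processing, 9 were positive and 2 negative with a median of 0.13, and 0 were called. Ifi30, the thiol reductase of antigen unfolding, had 130 ± 14.4 CPM with vehicle and 142 ± 14.7 CPM with MMP9 (SD, n = 5). Sppl2a, the protease that removes the last fragment of the invariant chain, had 107 ± 5.14 and 117 ± 13.4 CPM. Of 8 genes of class II turnover and traffic, 6 were positive and 2 negative, with a median of 0.03. Marchf1, the ubiquitin ligase that removes class II from the surface, had 12.7 ± 4.20 and 15.1 ± 3.33 CPM, and Cd83, which opposes that ligase, had 7.58 ± 3.87 and 10.7 ± 1.95 CPM.

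Of 9 genes of class II ligands and costimulation, 8 were positive and 1 negative, with a median of 0.22 and 0 called. Cd40, the receptor for T cell help, had 6.64 ± 1.69 CPM with vehicle and 11.0 ± 3.86 CPM with MMP9 (SD, n = 5). That is a log2 difference of 0.72 (SE 0.24), with an edgeR unadjusted p of 0.0129 and an adjusted p of 0.981. Cd274, which encodes the inhibitory ligand PD-L1, had 32.1 ± 5.30 and 43.6 ± 13.3 CPM. The 4 other class II chain genes were all positive with a median of 0.20, among them H2-DMb2 at 9.96 ± 2.34 and 11.2 ± 0.914 CPM.

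The genes outside these lists whose library profile was most like that of the class II chains were found by the root mean square difference of centred log2 CPM from the median profile of H2-Aa, H2-Ab1, H2-Eb1 and Cd74 over the 10 libraries. They were Qpct, a glutaminyl cyclase gene, at 0.107, Vegfc, a lymphatic growth factor gene, at 0.113, AI467606 at 0.114, Colec12, a scavenger receptor gene, at 0.114 and Ms4a4d at 0.125. The median over all genes tested was 0.439. Of the 4 members that did not define the profile, H2-DMb1 was closer than these 5, at 0.0679, and H2-DMa followed at 0.161. Ciita stood at 0.328, with 1224 genes closer, and Ctss at 0.488, farther than the median gene. The distance is not scaled, so a gene that moves the same way by a larger amount also stands far off. Ctss was lowest in vehicle mouse 3, as the chains were. Its vehicle SD of log2 CPM was 0.88, against 0.48 for H2-Ab1.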

How the data were processed

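Per the file headers, the table that the authors deposited gives an estimated count of reads for each gene and library, of which 60.8% are not whole. It also gives FPKM (per length and depth) and TPM (per length, summing alike in every library) as the authors computed them. The FPKM columns and the authors' group means were not used. Reads were single-end, 50 bases long, per the labels. The submitters' processing notes name HISAT and GRCm39. How reads were assigned to genes, shared reads and strand included, is not given in the sources used here.

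Estimated counts were rounded and fitted with edgeR 4.0.16 in R 4.3.3 (TMM factors, filterByExpr by group, quasi-likelihood F test, Benjamini-Hochberg adjustment over 15250 genes, threshold 0.05), a test checked on simulated counts. Log2 fold changes are MMP9 over vehicle. Alternatives used limma 3.58.1 and DESeq2 1.42.0. Each member had between 274 and 39111 estimated counts per library. No libraries of a group were duplicates, with a chi-square per gene of at least 18.6, where sampling noise alone gives about 1. Ratios were tested with exact permutation over mice. All 8 members were named. Of each list up to 4 genes with the smallest p could be named, and the 5 genes most like the members were taken by profile distance. Members and lists were chosen with earlier results of these data known. H2-Ea was looked for and matched no gene symbol in these data. The protein sequences of the paralogs were not analysed here.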

Additional observations from a re-analysis of the deposited data

How the results depend on the processing

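All 168 log2 fold changes of the 8 members under 21 alternatives were positive, and 0 members were called in any. The alternatives reuse the same libraries and most members vary together between mice, so the shared sign is not a repeated result. Leaving out each mouse in turn gave 0.06 to 0.37 for Cd74, 0.01 to 0.26 for H2-DMa, 0.16 to 0.41 for H2-Ab1 and 0.11 to 0.83 for Ctss. The lowest values came without vehicle replicate 3 (for Ctss, MMP9 replicate 5) and the highest without vehicle replicate 4 (for Ctss, vehicle replicate 5), and the lowest adjusted p of any member was 0.887. Limma on log2(TPM + 1) gave 0.20 for Ciita, where edgeR gave 0.34. Over all genes, DESeq2 called 1 gene (Pnliprp2, which is no member) and the other alternatives 0. Counts of members called, or not overlapping between groups, stayed at 0 in TPM and with RLE scaling. With the mouse number as a replicate block, 0 genes and 0 members were called, and 3 of 8 members had an unadjusted p under 0.05 in edgeR, against 3.63% of all genes in the same fit. The numbers were not taken as pairs because the labels do not say that a number is shared between groups. Deviations of same-numbered mice correlated between -0.24 and 0.46, and 3 of 10 libraries correlated best with their own number. With 5 mice per group these values cannot decide whether the mice were paired. Without each mouse in turn, the log2 difference ran from -0.014 to 0.069 for H2-Aa to H2-Ab1, from -0.10 to 0.0057 for Cd74 to H2-Ab1 and from -0.18 to 0.10 for Ciita to H2-Ab1, so these signs carry no direction. All 3 changed sign without MMP9 replicate 4, and Ciita to H2-Ab1 also without vehicle replicate 2; the cause was not tested. Depth was not limiting for the chains, but Ciita rested on 274 to 698 counts per library.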
